A study of Mus musculus with 2 samples.

Results

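Adipokines are the signalling proteins that fat tissue releases into blood and its surroundings, and 10 of their genes are described here. They are Adipoq, Lep, Retn, Rbp4, Nampt, Angptl4, Apln, Nrg4, Rarres2 and Metrnl, chosen by name as well-known adipokine genes with no measured value in the rule. All 10 were found by symbol among the 24421 genes listed. Adipoq, Lep and Retn encode circulating hormones with effects on insulin action and appetite. Rbp4 and Nampt encode a carrier protein and an enzyme that are also found outside the cell, Angptl4 an inhibitor of a lipase, and Rarres2, Apln, Nrg4 and Metrnl ligands that act on immune, vascular, liver or nerve cells. In fat tissue, Adipoq and Retn are switched on as precursor cells fill with lipid, whereas leptin output follows fat cell size and is known to be low in cultured fat cell lines.

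The cells were 3T3-L1, a mouse embryonic fibroblast line that becomes lipid-filled on hormonal induction and for which the labels give a C57BL/6 background. Cells at passages 10 to 13 were induced 2 days after confluence with insulin (1 µg/mL), dexamethasone (0.25 µM) and IBMX (0.5 mM) for 2 days and then kept on insulin, in both groups alike. The control culture had no further treatment, and the treated culture received DF, a preparation of several herbs that one label calls DF-GA70, until harvest. There was 1 library in each group, so each value below is a single measurement, no difference has a replicate check and no test was run. Neither the concentration of DF nor the time of harvest is stated in the sources used here. Being a single cell line, the cultures hold none of the vessels, immune cells or nerves of fat tissue, and adipokine protein was not measured.

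Values are the deposited log2 values of a method that reads messenger RNA at its 3′ end. They were not divided by transcript length, because such a method takes a read at the transcript's end whatever its length, and a value of 0 is written as listed at 0. A level floor was set at the median of all values above 0, which is 8.18 on the log2 scale. A gene was counted as different when it reached that floor in at least 1 library and its values differed by at least 1.5-fold. All 8 mature adipocyte markers examined reached the floor in both libraries, and their median difference was 0.20 (log2, DF minus control). Of 6 markers of preadipocytes or fibroblasts, 4 were lower with DF by 1.5-fold or more and 0 higher. Of all genes at the floor, 10.9% were lower and 10.2% higher. The summed linear value of the 6 markers was 115503 in the control and 46588 with DF. Dlk1, whose values of 16.55 and 15.10 are among the 140 highest, which are identical in the sorted files and so compare ranks and not amounts, made up 83.0% and 75.3% of these sums. Cd34 of that list was listed at 0 in both libraries, and Thy1 lay below the floor. No marker of macrophages (5 examined) or endothelial cells (4 examined) reached the floor. The part of the preadipocyte markers in the adipokine values was not tested, and in such bulk samples fewer cells of a type and less RNA per cell cannot be told apart.

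Of the 10 adipokine genes, 7 reached the level floor, 2 (Lep and Nrg4) were above 0 but below it, and Rbp4 was listed at 0 in both libraries. None of the 7 differed by 1.5-fold: 0 were higher and 0 lower, where 10.2% of the 6761 genes at the floor were higher and 10.9% lower. The 7 lay mostly on the higher side. Of them, 6 were higher with DF by some amount and only Angptl4 was lower, against 51.1% of all genes at the floor that were higher by some amount. The median difference over the 7 genes was 0.46 (log2) and that of all genes at the floor 0.01. With a limit of 1.3-fold, chosen after the values were seen, 4 of the 7 were higher and 0 lower, where 21.0% of all genes at the floor were higher and 20.2% lower. These 4 were Rarres2, Nampt, Metrnl and Retn. Metrnl reached the floor only through its DF value.

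**Figure D1:**
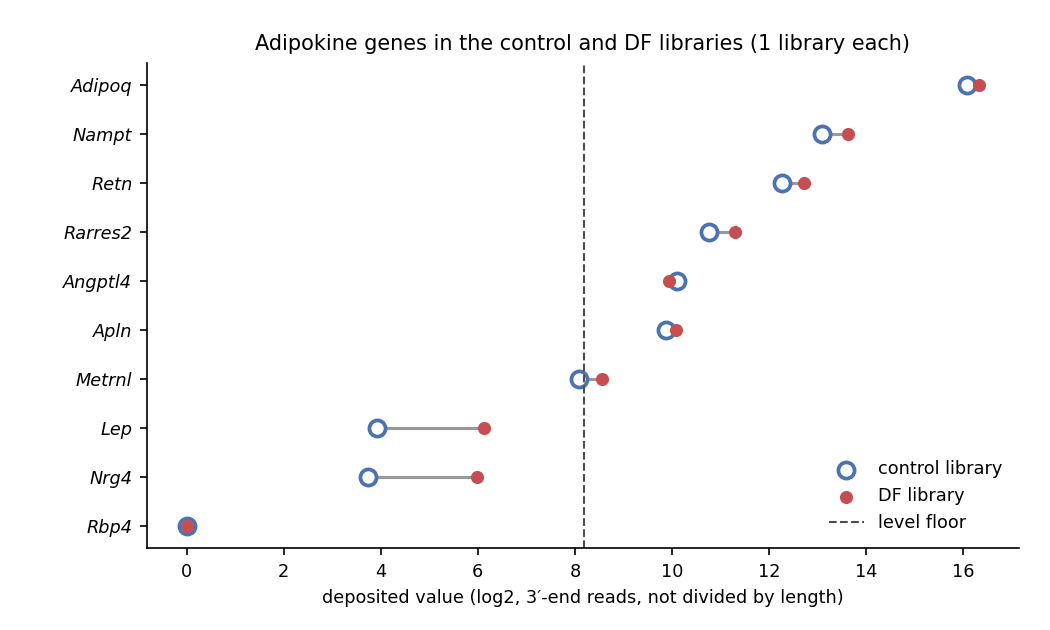
Deposited log2 value of each adipokine gene (x axis) in the control library (open circles) and the DF library (filled circles), ordered by mean level, with 1 library per group and the level floor of 8.18 as a dashed line. Only Angptl4 has its filled circle to the left of the open one, and Lep and Nrg4 show the widest gaps, below the floor.

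The order of the 3′-end values was nearly the same in both libraries. Adipoq stood first, followed by Nampt, Retn and Rarres2, then Angptl4 and Apln, then Metrnl, Lep and Nrg4. Angptl4 and Apln, next to each other in level, were the only pair to change places, with Angptl4 above Apln in the control library and below it with DF. On the linear scale, Adipoq made up 79.6% of the summed value of the 10 genes in the control library and 77.0% with DF. Nampt made up 10.1% and 11.9%, and Retn 5.62% and 6.32%. Because the Adipoq values compare ranks, these shares describe each library and not a change in amounts. Together the 10 genes held 0.455% of all linear values in the control library and 0.556% with DF.

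Because the messenger RNA of Adipoq and that of Lep lie near opposite ends of this order, the 250 bases before their RefSeq starts are shown together with those of Nampt, the second most abundant. The sequences are RefSeq's on GRCm38.p6, written 5′ to 3′ on the strand of the gene. The RefSeq start equals the GENCODE gene start for Adipoq and lies 1 base inside the GENCODE gene for Lep, whereas for Nampt it lies 790 bases inside, so that the Nampt window falls within the longer GENCODE span given further on. Capitals mark matches, on either strand, to TTGCGCAA (a palindrome bound by C/EBP factors), TATAA (the TATA box), CCAAT (the CCAAT box), GGGCGG (the GC box), CACGTG (the E-box) or the PPAR and RXR element (AGGTCA repeated with any 1 base between).
Adipoq (chr16:23146286-23146535, plus strand): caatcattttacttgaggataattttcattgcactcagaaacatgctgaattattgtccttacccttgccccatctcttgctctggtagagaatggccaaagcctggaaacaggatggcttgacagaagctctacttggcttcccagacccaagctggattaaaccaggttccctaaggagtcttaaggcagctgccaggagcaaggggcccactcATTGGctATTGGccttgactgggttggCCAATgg
Nampt (chr12:32820085-32820334, plus strand): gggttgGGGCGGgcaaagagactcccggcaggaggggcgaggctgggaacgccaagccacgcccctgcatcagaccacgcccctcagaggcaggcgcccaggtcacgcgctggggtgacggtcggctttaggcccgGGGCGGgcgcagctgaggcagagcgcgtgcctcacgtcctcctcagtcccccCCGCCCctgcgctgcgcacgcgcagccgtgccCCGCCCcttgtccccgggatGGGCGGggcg
Lep (chr6:29059971-29060220, plus strand): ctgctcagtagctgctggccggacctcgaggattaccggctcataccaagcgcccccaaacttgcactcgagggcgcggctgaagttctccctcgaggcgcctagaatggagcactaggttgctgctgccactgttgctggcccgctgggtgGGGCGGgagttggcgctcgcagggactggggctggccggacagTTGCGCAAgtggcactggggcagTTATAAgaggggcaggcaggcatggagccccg

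The Lep window holds the C/EBP palindrome from position -55, counted back from the start, with overlapping TATA matches on both strands from -32 and a GC box at -98. That palindrome occurs in 54 of 32851 windows of the same length (0.164%), a TATA match in 22.8% and a GC box in 32.7%. The Adipoq window has 3 CCAAT matches, a motif found in 33.8% of windows, and no TATA or GC box match. Its GC content was 48.8%, against 65.6% for Lep and 75.6% for Nampt, whose window holds 5 GC boxes. RefSeq windows were at hand for 8 of the 10 genes, 9 windows in all, with those of Angptl4 and Rarres2 not in the table. None of the 9 holds the PPAR and RXR element (0.0335% of all windows) or the E-box (6.02%), which says only that these letters are not in these windows. A wider C/EBP form, TTNNGCAA, was also searched; it covers the palindrome in Lep, occurs once more in 1 of the 2 Rbp4 windows, and is found in 9.56% of all windows. These matches describe the letters of the windows, and binding was not measured.

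Adiponectin, the protein of Adipoq, is the most abundant hormone of fat cells and raises insulin sensitivity in liver and muscle. On GRCm38, the build of all positions here, Adipoq is on chromosome 16 (plus strand, 23146536 to 23158028) and overlaps no other annotated gene. Its value was 16.08 in the control and 16.32 with DF, a difference of 0.24 (log2), which is 1.18-fold. It was the 18th highest gene in the control library and the 14th with DF. Both values are among the 140 highest, so they compare ranks and not amounts. Of the 200 genes nearest in level, 142 had a smaller difference. The difference of Adipoq was thus well inside the spread of genes of its level, whose robust SD was 0.40 (log2).

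Adiponectin is folded and joined into oligomers in the endoplasmic reticulum before release. Of 10 genes of that step, 9 reached the floor, with a median of 0.00. Of the 9, 1 was higher by 1.5-fold and 0 lower, against 10.2% and 10.9% of all genes at the floor. The other 8 lay within 1.5-fold. The one beyond the limit was Gstk1, also known as DsbA-L, which promotes adiponectin assembly. Its value was 6.56 in the control and 8.74 with DF, so it reached the floor only through the DF library. Erp44, which holds adiponectin back in the cell, was at 10.01 and 10.16, and Ero1l, the oxidase that releases it from Erp44, at 14.13 and 14.58. Hspa5, the abundant chaperone BiP, was at 16.47 in both. Among its receptors, Adipor1 was at 10.30 and 10.27 and Adipor2 at 12.94 in both, while Cdh13 (T-cadherin), which binds the large oligomers, was below the floor at 5.48 and 4.59.

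Of 9 genes for C1q/TNF-related proteins, which share the globular domain of adiponectin, only C1qtnf5, C1qtnf6 and C1qtnf12 reached the floor and the other 6 were listed at 0 in both libraries. C1qtnf12, listed under its older name Fam132a, was at 8.64 and 8.95. C1qtnf5 was 1.58-fold lower with DF (10.99 and 10.33), whereas Adipoq was 1.18-fold higher. Adig, which encodes the small adipocyte protein adipogenin and was placed in the same list without being a relative, was at 11.61 and 11.80.

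Resistin, the protein of Retn, is a cysteine-rich hormone of mouse adipocytes that opposes insulin action. Retn is on chromosome 8 (plus strand, 3655770 to 3660110), with no overlapping gene. Its value was 12.26 in the control and 12.72 with DF, a difference of 0.46 (log2) or 1.37-fold, and its rank moved from 661 to 435. It exceeded 175 of the 200 genes nearest in level, whose robust SD was 0.34. Its relatives Retnla, Retnlb and Retnlg were listed at 0 in both libraries. Of the proteins proposed to receive resistin, Cap1 was at 10.03 and 9.73, and Tlr4, also the receptor for bacterial lipopolysaccharide, at 6.80 and 3.41, below the floor in both.

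Leptin, the protein of Lep, reports fat stores to the brain and restrains appetite. Lep is on chromosome 6 (plus strand, 29060220 to 29073877), with no overlapping gene. Its value was 3.92 in the control and 6.12 with DF, below the floor in both libraries. In linear terms these are 15.1 and 69.8, a ratio of 4.61. In the control library 73 genes, Lep included, have the value of Lep, which is the 16th distinct value above the lowest. In the DF library 35 genes, Lep included, have its value there, the 67th. These steps show how near the bottom of the scale Lep lay; the sources used here do not state how many reads a step stands for. Of the 200 genes nearest in level, 189 had a smaller difference and 11 a larger one, with a robust SD of 1.25 (log2) among them. Lepr, the leptin receptor, was listed at 0 in both libraries.

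The C/EBP factors, whose palindrome is among the letters of the Lep window, differed in direction and size. Cebpa, which activates Lep and Adipoq in differentiated fat cells, had a value of 15.56 without DF and 15.64 with it. Cebpb and Cebpd, which act earlier, were lower with DF, with differences of -1.34 and -0.68 (log2). Of 20 transcription factors and coregulators examined, 17 reached the floor. Of the 17, 0 were higher by 1.5-fold, 2 (Cebpb and Cebpd) were lower and 15 lay within the limit. Of all genes at the floor, 10.2% were higher and 10.9% lower. The median over the 17 was -0.10 (log2). Pparg, the master regulator of the adipocyte programme and an activator of Adipoq, was at 11.94 and 11.84.

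**Figure D2:**
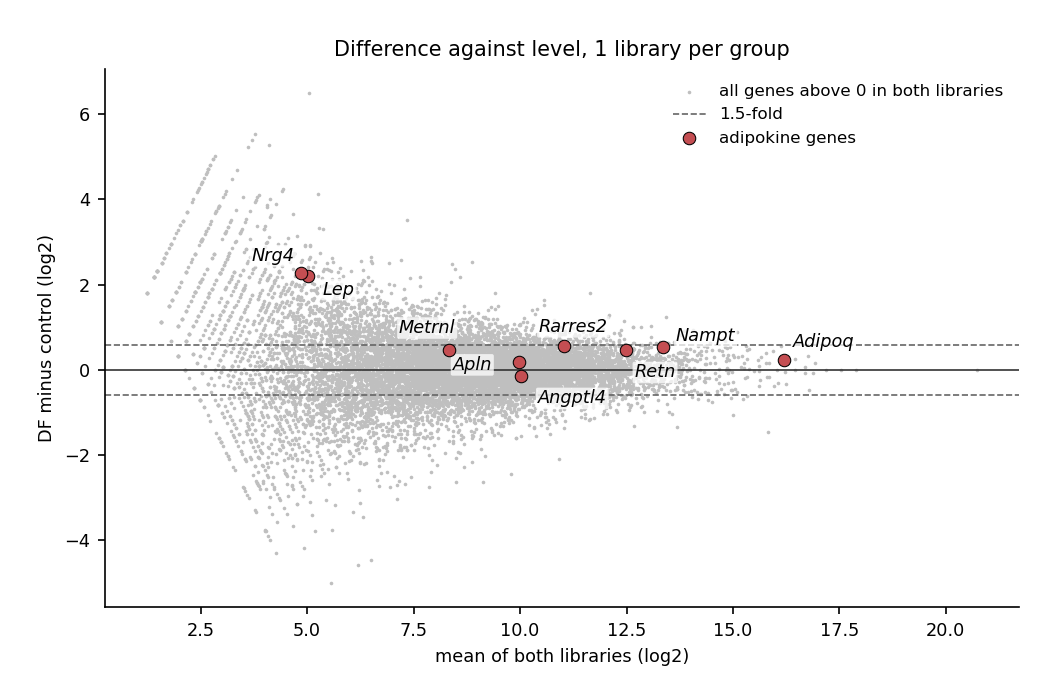
Difference between the DF and control libraries (y axis, log2) against the mean of both (x axis, log2) for all genes above 0 in both libraries (grey) and 9 adipokine genes (red), with dashed lines at 1.5-fold. The 7 adipokine genes at the floor lie between -0.15 and 0.55, inside the dashed lines, and Lep and Nrg4 lie above 2 at the left, where the grey points spread most.

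Neuregulin 4, the protein of Nrg4, is a ligand of the EGF family that is enriched in brown fat and acts on the liver through ErbB4. Nrg4 had a value of 3.73 without DF and 5.99 with it, again below the floor in both, and 13.2 and 63.6 on the linear scale. Its difference was 2.26 (log2), and 193 of the 200 genes nearest in level had a smaller difference. Lep and Nrg4 were thus both over 4-fold higher with DF, at nearly the same level. With a pseudocount of 50 added to the linear values, the differences were 0.88 for Lep and 0.85 for Nrg4 (log2). Of the 4984 genes above 0 in both libraries but below the floor, 6.30% were at least 4-fold higher with DF and 2.83% at least 4-fold lower. Nrg4 spans 55220222 to 55326844 on chromosome 9, minus strand, and its 3′ end lies inside Fbxo22 on the other strand, which was at 7.74 and 8.32. The sources used here do not state whether reads were counted by strand, so the Nrg4 value is less certain for this reason too. Its receptors Erbb3 and Erbb4 were listed at 0 in both libraries, as were Nrg2 and Nrg3, and Nrg1 was at 2.32 and 3.19.

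Retinol-binding protein 4 carries vitamin A in blood and is made by liver and by fat. Rbp4 is on chromosome 19 (minus strand, 38116629 to 38125281). Both libraries list it at 0, and no fold is given. It was 1 of 11408 genes listed at 0 in the control library and 1 of 12084 with DF. Stra6, the cell-surface receptor for the protein, its relative Rbpr2 (listed as Stra6l) and Ttr, its partner in blood, were listed at 0 as well. Of 21 genes of retinoid handling, 7 reached the floor, with a median of -0.50 (log2). Of the 7, 0 were higher and 2 lower by 1.5-fold, against 10.2% and 10.9% of all genes at the floor. Those lower were Adh1, an alcohol dehydrogenase that oxidises retinol (8.51 and 7.64, at the floor only in the control), and the retinoic acid receptor gene Rarg (a difference of -0.66). Rara, its abundant relative, was at 12.18 and 12.55, and Retsat, the retinol saturase that fat cells induce on differentiation, at 9.99 and 10.47.

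Nampt encodes the enzyme that starts the salvage of nicotinamide to NAD, and its secreted form is known as visfatin. It is on chromosome 12 (plus strand, 32819545 to 32853349). The non-coding gene Gdap10 lies within 5033 of these bases on the same strand, away from the 3′ end of Nampt, and was at 7.39 and 8.16. Nampt itself had a value of 13.10 without DF and 13.63 with it, a difference of 0.53 (log2) or 1.44-fold, and exceeded 184 of the 200 genes nearest in level, whose robust SD was 0.32. Its rank moved from 318 to 197. Of the abundant adipokine genes, it and Retn kept much the same proportion, with Nampt at 1.79 times Retn in the control and 1.89 times with DF.

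The genes around Nampt in NAD metabolism were also examined. Of 24 such genes, 10 reached the floor, with a median of 0.04 (log2). Of the 10, 1 was higher and 2 lower by 1.5-fold, against 10.2% and 10.9% of all genes at the floor. Nnmt, which methylates nicotinamide and so draws on the substrate of Nampt, was 1.71-fold higher (8.56 and 9.33). Nmnat2, which makes NAD from the product of Nampt, was 2.38-fold lower (8.23 and 6.98) and reached the floor only in the control, and Nadk2, the mitochondrial NAD kinase, 1.51-fold lower (10.01 and 9.41). Nmnat1, the nuclear counterpart of Nmnat2, was far below the floor at 1.00 and 4.08. The most abundant of the list were Slc25a51, the mitochondrial NAD carrier, at 11.96 and 12.19, and the cytosolic kinase Nadk at 10.88 and 11.47. Among the NAD users, Sirt1 was below the floor at 7.68 and 7.11, and Parp1 was at 10.19 and 9.77.

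Angptl4 encodes a secreted inhibitor of lipoprotein lipase that fasting and PPAR factors induce. It is on chromosome 17 (minus strand, 33773750 to 33781830), with no overlapping gene. It had a value of 10.10 without DF and 9.95 with it, the single adipokine gene at the floor with a lower value, by 0.15 (log2) or 1.11-fold. Of the 200 genes nearest in level, 130 had a larger difference and 70 a smaller one.

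Its target Lpl, the lipase that frees fatty acids from blood lipoproteins, was at 17.55 in both libraries, among the values that compare ranks only. Gpihbp1, which anchors the lipase to vessel walls, was listed at 0 in the control and at 4.59 with DF. Of 13 genes of this axis 7 reached the floor. Of the 7, 0 were higher and 1 lower by 1.5-fold, against 10.2% and 10.9% of all genes at the floor. The lower one was Angptl2, a relative of Angptl4 with roles in inflammation (11.15 and 10.47), and Angptl6 was at 9.69 and 9.16. Sel1l, which helps the lipase mature, was at 13.14 and 12.71. Of 15 other PPAR target genes listed, 10 reached the floor, of which 4 were higher and 0 lower by 1.5-fold, against 10.2% and 10.9% of all genes at the floor, with a median of 0.55 (log2). Those higher were Aqp7 (the glycerol channel, 7.36 and 9.42), Plin2 (a lipid droplet coat protein, 11.77 and 12.64), Cidec (a droplet fusion protein, 14.48 and 15.14) and Cd36 (a fatty acid transporter, 14.14 and 14.77). Aqp7 reached the floor only through the DF library, and the values of Cidec and Cd36 are among those that compare ranks only. Cidec and Cd36 are also among the mature adipocyte markers. The most abundant were Lpl and Fabp4, a fatty acid binding protein, at 16.67 and 16.73. Pdk4, a fasting-induced kinase that like Angptl4 responds to fatty acids, was below the floor at 6.97 and 6.14.

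Chemerin, the protein of Rarres2, draws immune cells through the receptor Cmklr1 and also acts on fat cells themselves. Rarres2 had a value of 10.75 without DF and 11.30 with it. The difference of 0.55 (log2), or 1.46-fold, was the largest among the adipokine genes at the floor and lay just under the limit of 1.5-fold. It exceeded 179 of the 200 genes nearest in level, whose robust SD was 0.41, and the rank moved from 1978 to 1369. Rarres2 is on chromosome 6 (minus strand, 48569696 to 48572789). Its 3′ end lies inside Lrrc61 on the other strand, which shares 1027 bases with it and was at 11.92 and 12.37, a difference of 0.46. Without knowing whether counting used the strand, reads of Rarres2 and of Lrrc61 cannot be told apart there. Cmklr1 was at 3.00 and 2.95, the other chemerin receptor Gpr1 was listed at 0 in both, and Ccrl2, which holds chemerin at the cell surface, was at 4.69 in the control and listed at 0 with DF.

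Apelin, the protein of Apln, is a precursor of short peptides that act on vessels, heart and metabolism through Aplnr, and insulin raises its output by fat cells. Apln is on chromosome X (minus strand, 48025146 to 48034853), with no overlapping gene. It had a value of 9.88 without DF and 10.08 with it, a difference of 0.20 (log2) or 1.15-fold, with 135 of the 200 genes nearest in level below it. This is near the middle of genes of its level. Aplnr and the second apelin receptor ligand gene, Apela, were listed at 0 in both libraries.

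Meteorin-like, the protein of Metrnl, is released by muscle and fat and acts on immune cells. Metrnl was at 8.09 in the control, just below the floor, and at 8.57 with DF, a difference of 0.47 (log2) or 1.39-fold. It exceeded 163 of the 200 genes nearest in level, whose robust SD was 0.54. Metrnl is on chromosome 11 (plus strand, 121701544 to 121716306), with no overlapping gene. Its only close relative, Metrn, which guides glial cells and axons, was lower with DF by more than the limit (9.24 and 8.66, a difference of -0.59). Kit, a proposed receptor, was at 3.49 in the control and listed at 0 with DF.

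Over all 15 receptor genes, 3 reached the floor (Adipor1, Adipor2 and Cap1), and 7 were listed at 0 in both libraries. Of the 3, 0 were higher and 0 lower by 1.5-fold, against 10.2% and 10.9% of all genes at the floor. Adipor1 and Adipor2 bind adiponectin, and Cap1 is a protein of the cytoskeleton that resistin is reported to bind.

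**Figure D3:**
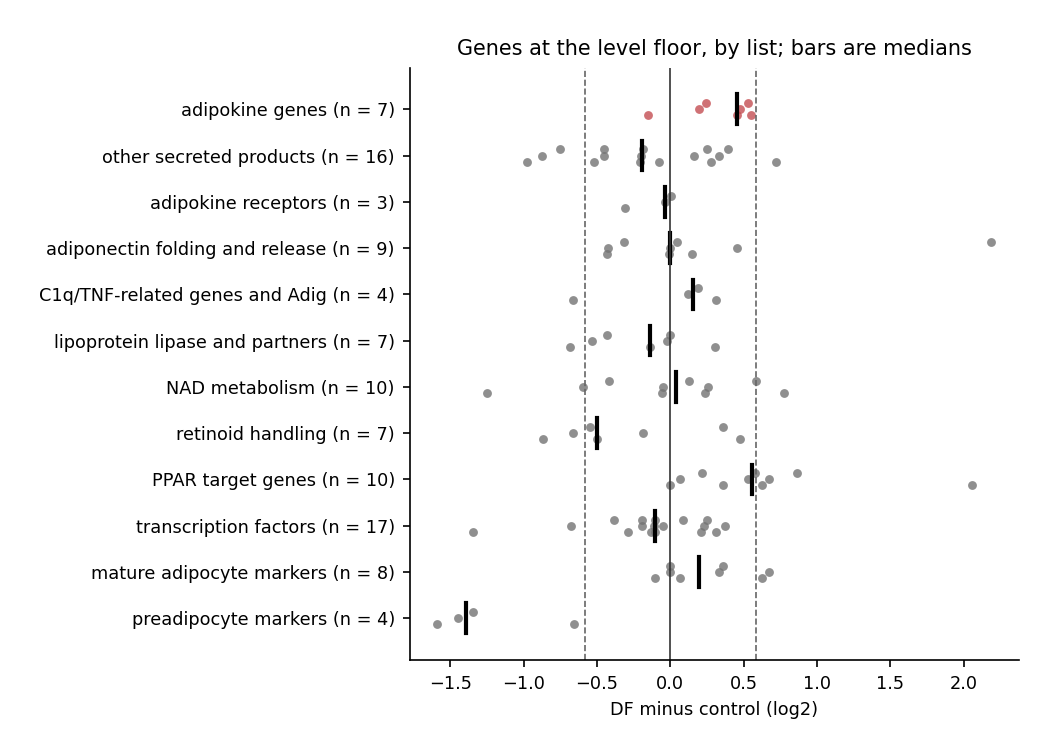
Difference between the DF and control libraries (x axis, log2) for each gene at the level floor, by list; points are genes, black bars medians and dashed lines 1.5-fold. The 7 adipokine genes (red) have a median of 0.46, mature adipocyte markers 0.20, PPAR target genes 0.55 and preadipocyte markers -1.40. Lists can share genes: Fabp4, Plin1, Lpl, Cidec and Cd36 are both mature adipocyte markers and PPAR target genes.

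The genes nearest to each adipokine gene in both values at once were found by the Euclidean distance of the log2 values, a likeness over only 2 libraries. For Retn they were Cox14, Uqcr10 and Uqcrq, each within 0.05 (log2) of it, for Adipoq they were Dbi, Fth1 and Scd1, and for Nampt they were Rabep1, Nup88 and Rtn4. Angptl4 had Krcc1, Mtif2 and Dmtn beside it, and Apln had Ipo9, Prkd3 and Ppip5k2. Rarres2 was nearest to Mpv17l2, Jarid2 and Tpp1, and Metrnl to Tango2, Tmem19 and Bnip1. With 2 libraries, many genes share any such pair of values.

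The adipokine differences were also set against those of mature adipocyte markers. The median difference of the 8 markers, 0.20 (log2), was subtracted from each gene, a choice made after the values were seen. Adipoq then stood at 0.04 and Apln at 0.00, level with the markers. Rarres2, at 0.35, Nampt, at 0.33, Metrnl, at 0.28, and Retn, at 0.26, remained above them, and Angptl4 stood below them at -0.35. The markers themselves ranged from Pparg at -0.10 to Cidec at 0.67, so each of these 7 adipokine differences other than that of Angptl4 (-0.15 before the subtraction) lay within the range of the markers. Of the markers, Fabp4, Lpl, Cidec, Cd36 and Cfd have values among the 140 highest, so the shift of 0.20 rests partly on ranks. Cfd is also counted below among other secreted products.

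**Figure D4:**
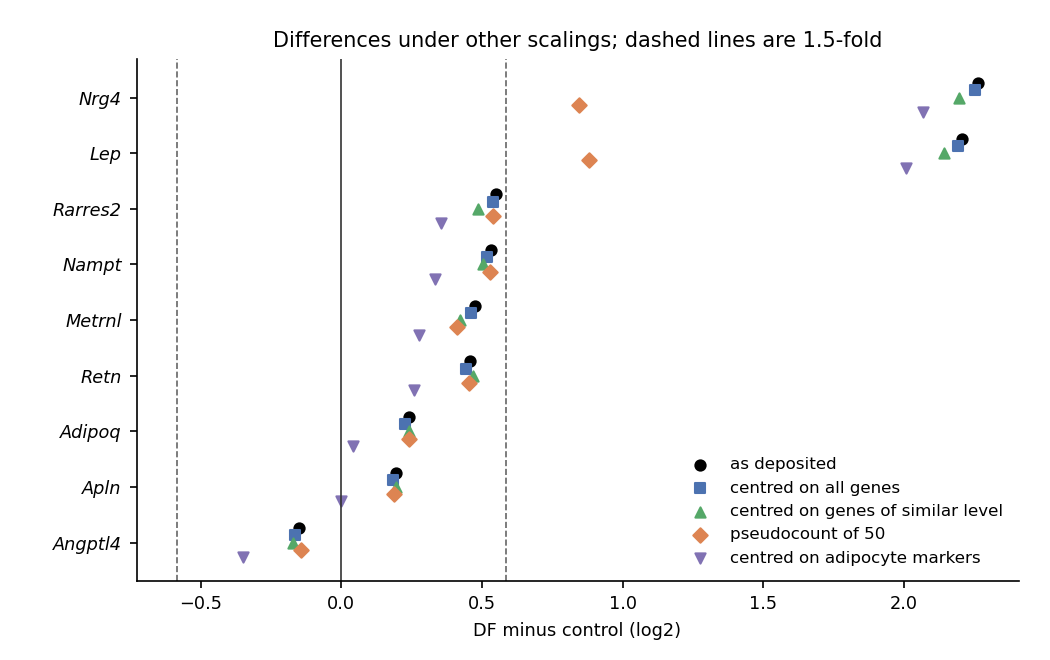
Difference between the DF and control libraries (x axis, log2) of 9 adipokine genes as deposited and under other scalings, 1 symbol per setting, with dashed lines at 1.5-fold. Centring on adipocyte markers moves all genes left by 0.20, and a pseudocount of 50 takes Nrg4 to 0.85 and Lep to 0.88.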

How the data were processed

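Each of the 2 libraries came from 500 ng of total RNA, prepared with a Lexogen kit for 3′ ends and read as single 75 nt reads, per the labels' protocols. The files hold 1 deposited value on the log2 scale for each gene symbol, and their headers name the sample only. Bowtie2, edgeR and mm10 are named in the submitters' processing notes; the sources used here do not state the normalization, read counter, annotation or strand setting. The 140 highest sorted values are identical in both files, as quantile normalization would leave them, so differences in total output are not visible. The values of Cebpa, Fabp4, Cfd, Psap, Ero1l, Hspa5 and Vegfa are also among these highest and compare ranks only. Low linear values lie on steps of 1/8 in both files (100%), for a reason the sources do not state. Since the normalization is not stated, values below the 140 highest may compare ranks too. The depth is unknown.

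Differences are DF minus control with no pseudocount, computed in Python 3.11.15 with pandas 2.3.3. All 10 members were named, and in each list those beyond 1.5-fold, the 2 most abundant and direct partners of a member; some further list members were named after their values were seen. The members and lists were chosen with earlier results of these data known. The robust SD is the scaled median absolute deviation among the 200 genes nearest in mean level. Positions are from GENCODE vM21. Alternatives changed the floor, limit, pseudocount and centring; a value counted as moved at 0.1 log2 units.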

Additional observations from a re-analysis of the deposited data

How the results depend on the processing

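The count of 0 adipokine genes beyond 1.5-fold was also 0 with a floor at the upper quartile, a 2-fold limit, centring on all genes, a pseudocount of 50 and centring on adipocyte markers. Without a floor it was 2 (Lep and Nrg4), and at 1.3-fold, chosen after seeing the data, 4. The median over the 9 genes above 0 was 0.47 (log2), lay between 0.45 and 0.50 with centring on all genes, genes at the floor only, a pseudocount of 1 or 50 or any 1 gene left out, and was 0.28 after centring on adipocyte markers, added after seeing the data. Single genes moved by under 0.1 with centring on all genes or on genes of similar level and with either pseudocount, except that with a pseudocount of 50 Lep was at 0.88 and Nrg4 at 0.85. Centring on adipocyte markers moved all 9, and took Apln from 0.20 to 0.00. Over all genes, 693 were higher and 735 lower at the floor. Without a floor these were 2153 and 1864, with the upper-quartile floor 269 and 302, at 2-fold 173 and 217, and at 1.3-fold 1418 and 1363. Centring on all genes shifted values by 0.01 and left the counts beyond 1.5-fold in each list of related genes unchanged. No paired analysis was possible because each group holds 1 library, so no replicate could be left out either.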

Other observations

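Of 34 other secreted products of fat cells, 16 reached the level floor. Of the 16, 1 was higher by 1.5-fold, 3 were lower and 12 lay within the limit. Of all genes at the floor, 10.2% were higher and 10.9% lower. The median of the 16 was -0.19 (log2), against 0.46 for the 7 adipokine genes at the floor and 0.01 for all genes there. Over the 21 secreted products above 0 in both libraries the median was -0.08. Gdf15, a stress hormone that acts on the hindbrain, was 1.65-fold higher (9.93 in the control and 10.65 with DF). Fstl1, a follistatin-like glycoprotein made by preadipocytes, was 1.97-fold lower (13.39 and 12.41), Gas6, the ligand of the TAM receptors, 1.84-fold lower (13.02 and 12.14) and Nenf, which encodes neudesin, 1.68-fold lower (10.01 and 9.26). The most abundant were Cfd, which encodes adipsin, at 16.58 and 16.92, and Psap, the lysosomal prosaposin, at 16.92 and 16.84. Vegfa, the vascular growth factor, was at 15.26 and 14.81, and Agt, which encodes angiotensinogen, at 12.86 and 12.34.

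Several secreted products were at the bottom of the scale. Il6, Tnf, Itln1 (omentin), Serpina12 (vaspin) and Dpp4 were listed at 0 in both libraries. Lcn2, the lipocalin that binds iron carriers of bacteria, had a value of 1.46 without DF and 6.73 with it, below the floor in both, and each of the 200 genes nearest in level had a smaller difference. Sfrp5, a Wnt-binding protein, was listed at 0 in the control and at 5.03 with DF, and Fgf21 at 4.69 in the control and 0 with DF. Vegfa, Agt and the genes at the bottom of the scale were named after their values were seen.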
